A study of Mus musculus with 43 samples.

Results

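The Slc25 family of mitochondrial carriers was followed through 5 comparisons of mouse inguinal white adipose tissue, the fat pad under the skin of the groin. Members were the protein-coding genes whose symbol starts with Slc25a in the RefSeq gene table of GRCm38.p6, and 47 genes met that rule. Of these, 45 are among the 22622 genes of the deposited tables; Slc25a11 and Slc25a51 were not analysed here. Of the 45 members, 37 reached the minimum level for testing in at least 1 comparison and 32 in all 5, while 8 stayed below it in every comparison.

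The study set cooler against warmer housing, and mutant against control mice, in young and adult animals. At P28, 4 libraries came from C57BL/6J mice kept at 30 C, 4 from TrkA-flox Th-cre mice at 22 C, and 4 from C57BL/6J mice at 22 C, which served as reference for both. At P25 and 22 C, 8 libraries were labelled Bcl6-flox Prx1-cre and 7 Bcl6-flox; at 9 weeks and 4 C there were 4 of each. At 9 weeks, 4 libraries came from C57BL/6J mice at 4 C and 4 from C57BL/6J mice at 22 C. Th-cre acts in cells that use the tyrosine hydroxylase promoter, such as sympathetic neurons, and its wild-type controls carry neither the floxed TrkA allele nor Cre. Prx1-cre acts in limb-bud mesenchyme and its descendants, which include inguinal fat precursors, and both of its groups carry floxed Bcl6. Nothing in the labels ties each library to an animal of its own, and p-values therefore cover the spread from library to library, which may be technical.

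Mitochondrial carriers are proteins of the inner mitochondrial membrane, with a few in other organelle membranes, that move metabolites such as nucleotides, phosphate, carboxylates, acylcarnitines, amino acids and cofactors in exchange for one another. Uncoupling protein 1, the proton carrier that lets brown and beige fat cells turn fuel into heat, has the same fold, so thermogenic fat both contains an unusual member of the superfamily and depends on others to feed its mitochondria with fatty acids and nucleotides. White adipocytes use the citrate carrier to export carbon for fatty acid synthesis.

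The values are normalized counts, scaled separately in each table, so each comparison was made within its own table. A member was said to rise or fall when the limma test on log2(value + 1) gave a p adjusted over all tested genes of that table below 0.05, and fold changes are log2 with their standard error (SE). Adipocyte markers, 7 of 8 in the tables, summed to at least 45579 in every library. Skeletal muscle markers, 13 of 16 in the tables, summed to 265 to 645779 in libraries of the adult Bcl6 table. In the adult wild-type table they summed to 69.5 to 54919. Mammary epithelium markers, 7 of 8 in the tables, summed to 3103 to 34860 and 8.21 to 8034 in the same order. None of the mammary epithelium markers passed in any comparison, and their part in the members' values was not tested. Libraries with Xist above 100, and those without, were mixed in 4 of the 5 tables, and all 8 libraries of the adult Bcl6 table were above it. Ucp1, the marker of thermogenic fat, fell at 30 C with a fold change of -4.06 ± 0.37 (SE) and in TrkA-flox Th-cre libraries with one of -1.96 ± 0.38. It also fell in libraries labelled Bcl6-flox Prx1-cre, with fold changes of -4.18 ± 0.38 at P25 and -2.12 ± 0.39 at 9 weeks, and rose at 4 C in adult wild-type mice with one of 6.17 ± 0.53. Total Bcl6 was higher, not lower, in the libraries labelled Bcl6-flox Prx1-cre, at 1517 to 3329 against 454 to 1395 in Bcl6-flox at P25 and at 9624 to 14493 against 1607 to 2529 at 9 weeks. A gene total does not show whether the floxed exons were read, so it does not check the deletion, and these groups are named by their labels. In bulk tissue, fewer cells of a type and less RNA per cell cannot be told apart.

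Levels within the family differed widely, although values here are not divided by transcript length and so do not rank genes against each other. Slc25a39 and Slc25a54 were listed at 0 in all 47 library columns of the 5 tables, and Slc25a38 was at 0 in 37 with a highest value of 1.71. Slc25a39 and Slc25a38 are carriers that most cells use for glutathione and glycine, so a listed 0 is not read as absence. Slc25a4, the ADP/ATP carrier of heart and muscle, reached no more than 21.8 in any library. That includes the Bcl6-flox library with the highest muscle score, where Slc25a4 stood at 15.1, within the 13.5 to 15.4 of the other Bcl6-flox libraries of that table. The low values of Slc25a4, here and in the comparisons below, are not read as low expression either. Slc25a5, the ADP/ATP carrier of most tissues, ranged from 1810 to 24425; it has a close paralog in Slc25a4 and a pseudogene copy, Slc25a5-ps, and how reads were divided among such copies is not given in the sources used here.

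**Figure D1:**
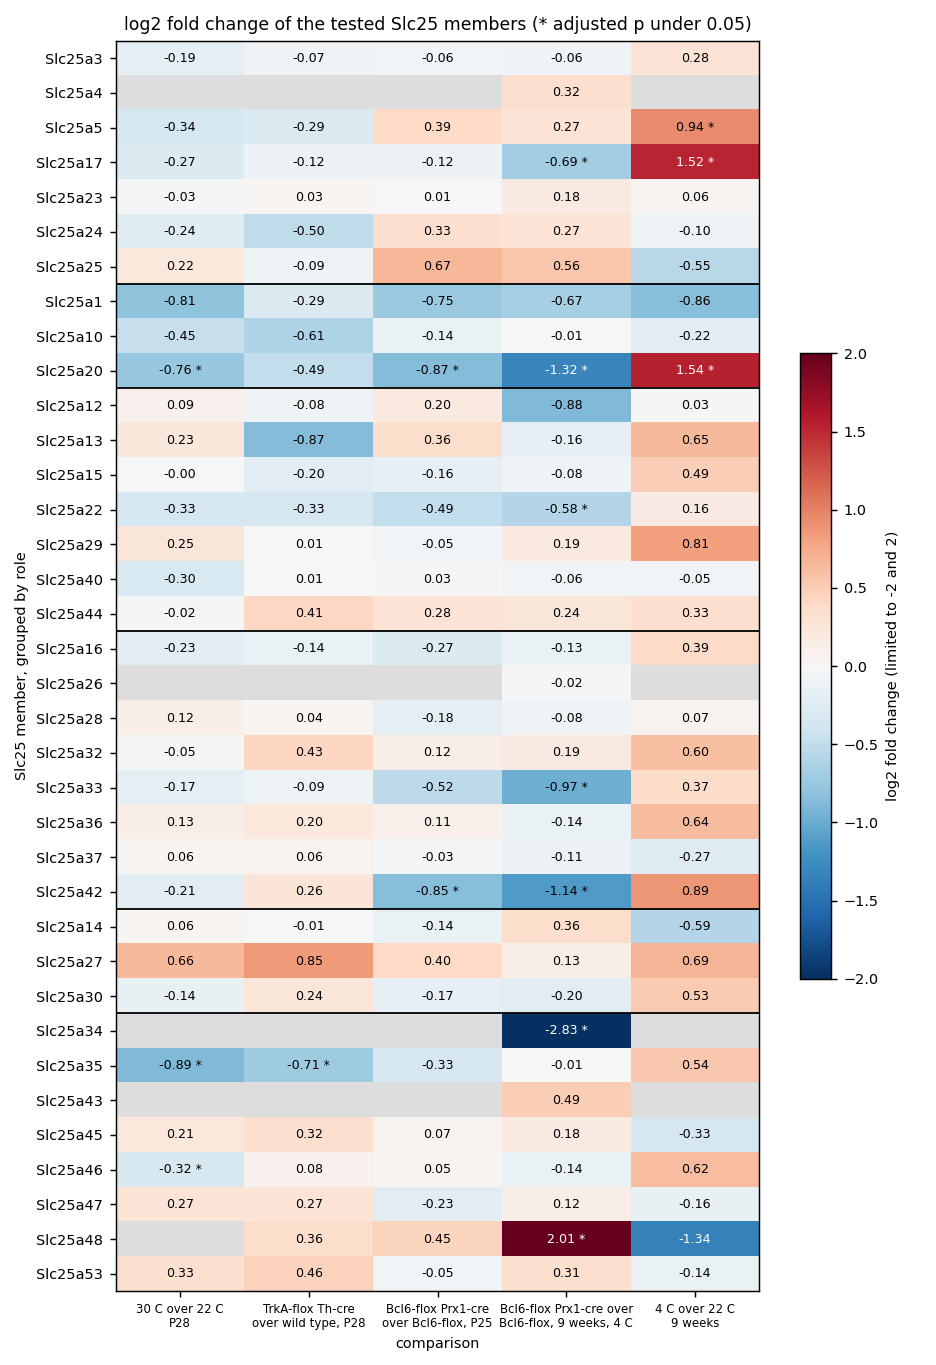
Log2 fold change of 36 tested Slc25 members (rows, grouped by role with lines between groups) in the 5 comparisons (columns), as colour and number, with an asterisk where the adjusted p was below 0.05 and grey where a member was not tested. Slc25a20 carries an asterisk in 4 columns, negative in 3 and positive at 4 C in adult wild-type mice, whereas 26 members shown carry none.

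Across the 5 comparisons, 10 members passed the test at least once and 27 tested members never did. Slc25a20, the carnitine-acylcarnitine carrier that brings long-chain fatty acids into the matrix for oxidation, passed in 4 of 5 comparisons. Another 3 members passed in 2 comparisons each: Slc25a17, the peroxisomal carrier of coenzyme A and adenine nucleotides; Slc25a42, which exchanges coenzyme A for adenine nucleotides across the inner membrane; and Slc25a35, whose substrate is not settled. The other 6 passed once.

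In wild-type mice at P28, the acylcarnitine carrier Slc25a20 fell at 30 C relative to 22 C, together with Slc25a35 and Slc25a46, and no member rose, where 1.29% of all tested genes did. These 3 are 9.38% of the 32 tested members, where 3.17% of all 12283 tested genes fell; 10 members fell and 1 rose at an unadjusted p below 0.05, where 11.1% of all tested genes fell so and 8.35% rose. The median log2 fold change was -0.09 over the tested members and 0.01 over all tested genes. Of 6 thermogenic adipocyte markers 5 were in the table, and 3 of 4 tested fell. Together the 5 summed to 639.7 to 1304 at 30 C and 2167 to 4201 at 22 C. Macrophage markers, of which 3 of 8 rose, summed to 5953 to 7334 and 4176 to 5564. Adipocyte markers, of which 1 of 7 rose, summed to 79633 to 91470 at 30 C and 51435 to 69514 at 22 C without overlap, and their part in the members' values was not tested.

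Among the carboxylate and acylcarnitine carriers, all 3 tested members had negative fold changes. Slc25a20 stood at 525, 489.6, 417 and 465 in the 30 C libraries, against 735, 854, 789.6 and 831 at 22 C. Every 30 C library lay below every 22 C library, a fold change of -0.76 ± 0.08 (adjusted p = 0.00274). Slc25a1, the citrate carrier, had 1995, 3798, 2640 and 2903 at 30 C and 4776, 7062, 2753 and 5834 at 22 C; 3 of the 22 C libraries were above all 30 C libraries and replicate 3 was not, and the fold change of -0.81 ± 0.29 did not pass (adjusted p = 0.163). Slc25a10, the dicarboxylate carrier, ranged over 1908 to 2512 at 30 C and 2336 to 3716 at 22 C, with a fold change of -0.45 ± 0.14 that did not pass (adjusted p = 0.116).

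None of the 6 tested adenine nucleotide and phosphate carriers passed in limma at 30 C. Slc25a5 came closest, at 2449, 2241, 2086 and 1980 in the 30 C libraries against 2492, 2823, 2999 and 2797 at 22 C. The groups did not overlap, but with a fold change of -0.34 ± 0.08 the adjusted p was 0.0550. Slc25a5 fell in the fit with an indicator for Xist above 100 and in that with a stricter filter of 50. It passed in no other fit of this comparison. Slc25a3, which imports the phosphate that ATP synthase consumes, ranged over 2006 to 2491 at 30 C and 2389 to 2647 at 22 C. Slc25a25, a calcium-regulated carrier of ATP-Mg and phosphate, ranged over 190.4 to 319 and 189 to 256 in the same order. Both overlapped between temperatures, as did Slc25a4, which was below the test minimum at 3.59 to 10.1 at 30 C and 1.79 to 7.08 at 22 C.

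Slc25a17, the peroxisomal member of this group, had 341, 296, 337 and 287 at 30 C and 381, 372, 356 and 416 at 22 C. It was lower in every 30 C library without passing (adjusted p = 0.104), and 5 members in all were without overlap in that direction, where 7.72% of all tested genes were; none was without overlap in the other direction, where 5.23% of all tested genes were.

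The carriers of amino acids, and of cofactors, had no member past the threshold. Slc25a44, which imports branched-chain amino acids and is known for this role in brown fat, ranged over 509 to 575 at 30 C and 479 to 651 at 22 C. Slc25a42 had 395, 377, 416 and 529 at 30 C and 520.2, 518, 429.5 and 507 at 22 C, overlapping groups with an adjusted p of 0.358. The uncoupling-protein-like Slc25a27 had the highest fold change of any uncalled member, 0.66 ± 0.27, which did not pass (adjusted p = 0.221).

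Slc25a35 had the lowest fold change of the family. Its values were 262, 298, 237 and 267 at 30 C, against 493, 545, 427 and 509.9 at 22 C. All 30 C libraries were below all 22 C libraries, with a fold change of -0.89 ± 0.10 (adjusted p = 0.00274). Slc25a46, an outer-membrane protein of the family that acts in mitochondrial shape and fission, had 456, 380.2, 405 and 374 at 30 C and 487, 515, 492 and 525 at 22 C. Its groups did not overlap either, with a smaller fold change of -0.32 ± 0.07 (adjusted p = 0.0451).

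Genes around the carriers fell at 30 C as well. Of 11 tested respiratory chain genes 10 fell, with a list median of -0.51, among them Uqcrc2, a core subunit of complex III, by 0.63 ± 0.08 (SE). Timm9 and Timm10, the chaperones that guide carrier proteins across the intermembrane space, fell by 0.55 ± 0.12 and 0.59 ± 0.13, 2 of 10 genes of carrier import. Of 14 tested partner enzymes 5 fell, including Cpt1b by 1.32 ± 0.21 and Cpt2 by 0.76 ± 0.07, the carnitine palmitoyltransferases that make and use the acylcarnitines carried by Slc25a20. Muscle markers summed to 358 to 18506 at 30 C and 344 to 1053 at 22 C. With the muscle score in the fit, 0.513% of all tested genes fell. Of the genes around the carriers, 0 respiratory chain and 0 carrier import genes passed in that fit, and Cpt2 was the 1 partner enzyme that did. Those that had fallen without the score kept their direction. Among the members, Slc25a20 and Slc25a35 fell with the muscle score and Slc25a46 lost its call. Slc25a46 passed in 1 of 8 fits that each left out a library, and Slc25a20 and Slc25a35 passed in all 8. Without 22 C replicate 3, 6 members fell, Slc25a1, Slc25a10, Slc25a16, Slc25a20 and Slc25a35 among them. The share of all tested genes that fell without it is not given here, so this count is no result about the family.

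The loss of TrkA in Th-cre cells was compared with wild type at the same age and temperature, using the same 4 wild-type libraries as the temperature comparison. Slc25a35 was the 1 member that fell, and no member rose, where 1.34% of all tested genes did. That is 1 of 33 tested members, where 1.32% of 11899 tested genes fell, so the count itself is no result about the family; 4 members fell and 3 rose at an unadjusted p below 0.05, where 10.1% of all tested genes fell so and 9.08% rose. The median log2 fold change was -0.01 over the members and -0.01 over all tested genes. Thermogenic markers, of which 2 of 4 tested fell, summed to 1078 to 2094 in TrkA-flox Th-cre libraries and 1920 to 3704 in wild type. Macrophage markers, of which 4 of 7 tested rose, summed to 6434 to 7902 and 3701 to 4889. Adipocyte markers, of which 1 of 7 fell, summed to 63951 to 82615 in TrkA-flox Th-cre libraries and 45579 to 60803 in wild type without overlap, and their part in the values was not tested here either.

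Slc25a35 stood at 250.1, 241, 297 and 271 in TrkA-flox Th-cre libraries, against 434, 477, 378 and 448 in wild type. Every mutant library was below every wild-type library, with a fold change of -0.71 ± 0.10 (adjusted p = 0.00972). Muscle markers summed to 1235 to 6818 in TrkA-flox Th-cre libraries and 308 to 941 in wild type, with no overlap. With the muscle score in the fit, the fold change of Slc25a35 was -0.63 ± 0.17 and the adjusted p was 0.33.

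Slc25a20 had 509.6, 617, 551 and 362 in TrkA-flox Th-cre libraries, against 648, 746, 699.6 and 729.6 in wild type. All mutant libraries were lower, replicate 4 most, but the fold change of -0.49 ± 0.15 did not pass (adjusted p = 0.109). Slc25a10 was likewise lower in every mutant library, at 1349, 1700, 2015 and 2060 against 2763, 2807, 2070 and 3264 in wild type, and did not pass (fold change -0.61 ± 0.17, adjusted p = 0.0830). In total 5 members had all mutant libraries below all wild-type libraries, where 5.57% of all tested genes did, and 1 had them all above, where 5.63% did. Slc25a10 also fell in the fits without TrkA-flox Th-cre replicate 4 or without wild-type replicate 3.

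The remaining carriers of the fixed panel overlapped or did not pass. Slc25a5 had 1998, 2167, 2050 and 1810 in TrkA-flox Th-cre libraries and 2197, 2469, 2657 and 2457 in wild type, lower throughout but with an adjusted p of 0.135. Slc25a44 was higher in every mutant library, 638, 697, 681 and 574 against 427, 539.8, 424 and 572 in wild type, with a fold change of 0.41 ± 0.12 that did not pass (adjusted p = 0.101). Slc25a1 had a fold change of -0.29 ± 0.30, Slc25a3 of -0.07 ± 0.08, Slc25a25 of -0.09 ± 0.13 and Slc25a42 of 0.26 ± 0.16, all with overlapping groups. Slc25a4, untested, ranged over 0 to 4.33 in mutant and 1.57 to 6.24 in wild-type libraries. No gene passed in limma among 11 tested respiratory chain genes (list median -0.23), 14 partner enzymes (-0.33) or 10 carrier import genes (-0.21). Ucp2, a relative of Ucp1, rose by 0.66 ± 0.10 (SE). With the muscle score in the fit, neither this rise nor the fall of Ucp1 given above passed, and both kept their direction. In that fit 0.101% of all tested genes rose and 0.0588% fell.

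At P25 and 22 C, the libraries labelled Bcl6-flox Prx1-cre had less of the acylcarnitine carrier Slc25a20 and of the coenzyme A carrier Slc25a42 than Bcl6-flox libraries. Slc25a20 and Slc25a42 fell and no member rose, where 1.56% of all tested genes did. These 2 are 6.06% of 33 tested members, where 1.97% of 12738 tested genes fell; 5 members fell and 2 rose at an unadjusted p below 0.05, where 8.23% of all tested genes fell so and 6.77% rose. The median log2 fold change was -0.05 over the members and 0.00 over all tested genes. Thermogenic markers, of which 4 of 5 fell, summed to 1561 to 3923 in libraries labelled Prx1-cre and 6737 to 19273 in Bcl6-flox, without overlap.

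Slc25a20 had a lowest value of 1062, a median of 1277 and a highest of 1823 in the 8 libraries labelled Bcl6-flox Prx1-cre, against 1927, 2413 and 3214 in the 7 Bcl6-flox libraries. The groups did not overlap, and the fold change was -0.87 ± 0.14 (adjusted p = 0.00143). It was the only one of 33 tested members without overlap, where 0.644% of all tested genes had all libraries labelled Prx1-cre lower and 0.652% had all of them higher. Slc25a42 had a lowest value of 472, a median of 831 and a highest of 992 in libraries labelled Prx1-cre, against 821, 1640 and 1947 in Bcl6-flox. Its groups overlapped through 2 low Bcl6-flox libraries, and the fold change was -0.85 ± 0.21 (adjusted p = 0.0331). The call on Slc25a42 was lost with the muscle score in the fit, at a fold change of -0.81 (adjusted p = 0.0732), and held in 6 of 15 fits that left out 1 library each, whereas Slc25a20 passed in all 15 and in every other setting tried.

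The other carboxylate carriers had negative fold changes that did not pass. Slc25a1 ranged over 3635 to 11887 in libraries labelled Prx1-cre and 6003 to 36421 in Bcl6-flox, with a fold change of -0.75 ± 0.33 (adjusted p = 0.283) and the highest value in the Bcl6-flox library M4. Slc25a10 had a fold change of -0.14 ± 0.13 with overlapping groups. Slc25a22, a glutamate carrier, ranged over 759.8 to 1453 in libraries labelled Prx1-cre and 1191 to 1948 in Bcl6-flox, and its fold change of -0.49 ± 0.13 missed the threshold (adjusted p = 0.0537).

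Among nucleotide and phosphate carriers the fold changes ran both ways and none passed. Slc25a5 had a lowest value of 7067, a median of 8494 and a highest of 11897 in libraries labelled Prx1-cre, against 5332, 6239 and 9618 in Bcl6-flox; the fold change of 0.39 ± 0.14 did not pass (adjusted p = 0.153). Slc25a25 had the highest uncalled fold change, 0.67 ± 0.22 (adjusted p = 0.120). Slc25a3 had a fold change of -0.06 ± 0.12 and the branched-chain amino acid carrier Slc25a44 of 0.28 ± 0.15, with overlapping groups. Slc25a4, below the test minimum, ranged over 3.21 to 16.7 and 1.75 to 13.6 in the same order of groups.

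Enzymes that work with these carriers moved in both directions. Of 15 tested partner enzymes 5 fell: Crat, which makes short acylcarnitines, by 0.97 ± 0.12 (SE), Cpt2 by 0.52 ± 0.12, and the branched-chain amino acid enzymes Bcat2 by 0.77 ± 0.18, Bckdha by 0.53 ± 0.11 and Dbt by 0.42 ± 0.11. Got2, the mitochondrial aspartate aminotransferase of the malate-aspartate shuttle, rose by 0.77 ± 0.10. No gene passed in limma among the 11 tested respiratory chain genes (list median -0.18) and the 10 of carrier import (-0.11). Muscle markers summed to 291 to 86414 in libraries labelled Prx1-cre and 5239 to 41622 in Bcl6-flox. These 6 enzymes kept their direction with the muscle score in the fit, and 3 passed, Crat, Bckdha and Got2. In that fit 1.2% of all tested genes rose and 1.46% fell.

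In adults kept at 4 C, in libraries labelled Bcl6-flox Prx1-cre, 6 members fell relative to Bcl6-flox and Slc25a48 rose. The falls are 16.2% of 37 tested members, where 5.46% of 13496 tested genes fell; the 1 rise is 2.70% of the members, where 9.01% of all genes rose, so it is no result about the family. Slc25a34 reached the test minimum only through the Bcl6-flox libraries, so the filter favoured its fall; of the other 36 members 5 fell, or 13.9%. In 8 members all libraries labelled Prx1-cre were below all Bcl6-flox libraries, where 10.1% of all tested genes were, and in 1 they were all above, where 12.2% were. Unadjusted, 8 members fell and 4 rose at a p below 0.05, where 13.4% of all tested genes fell so and 16.4% rose. The median log2 fold change was -0.02 over the members and -0.02 over all tested genes. Thermogenic markers, which fell in 5 of 5, summed to 9677 to 36099 in libraries labelled Prx1-cre and 72192 to 113952 in Bcl6-flox. Macrophage markers, which rose in 8 of 8, summed to 16910 to 28737 and 9430 to 12725.

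Slc25a20 had 2645, 4151, 5471 and 4178 in libraries labelled Bcl6-flox Prx1-cre, against 11326, 9455, 10645 and 8593 in Bcl6-flox. The groups did not overlap, and the fold change was -1.32 ± 0.20 (adjusted p = 0.00463). Slc25a1 was also lower in every library labelled Prx1-cre, at 15648, 16124, 17448 and 7214 against 24162, 21912, 20018 and 19130 in Bcl6-flox, but did not pass (fold change -0.67 ± 0.26, adjusted p = 0.130). Slc25a10 ranged over 12018 to 21240 in libraries labelled Prx1-cre and 15145 to 19376 in Bcl6-flox and overlapped.

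The coenzyme A carrier Slc25a42 and the pyrimidine nucleotide carrier Slc25a33 fell as Slc25a20 did. Slc25a42 stood at 1410, 1964, 2075 and 1687 in libraries labelled Prx1-cre, against 4293, 3527, 4107 and 3651 in Bcl6-flox, and had the smallest adjusted p of the family (0.00141), with a fold change of -1.14 ± 0.13. Slc25a33, which carries pyrimidine nucleotides into the matrix, had 502, 623, 746 and 491 in libraries labelled Prx1-cre and 1137, 1110, 1218 and 1103 in Bcl6-flox. Both were without overlap, Slc25a33 at a fold change of -0.97 ± 0.13 (adjusted p = 0.00310).

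Slc25a17 had 2124, 2609, 2856 and 2265 in libraries labelled Prx1-cre, against 4715, 3656, 3831 and 3732 in Bcl6-flox. It did not overlap, with Bcl6-flox replicate 1 well above the rest, and its fold change was -0.69 ± 0.12 (adjusted p = 0.00657). The ADP/ATP carrier Slc25a5 had 21431, 24425, 20062 and 17948 in libraries labelled Prx1-cre and 19143, 16404, 20365 and 14072 in Bcl6-flox, a fold change of 0.27 ± 0.14 that did not pass (adjusted p = 0.252). Slc25a3 had a fold change of -0.06 ± 0.10, Slc25a25 of 0.56 ± 0.47, Slc25a44 of 0.24 ± 0.09 and Slc25a4 of 0.32 ± 0.24, each with overlapping groups.

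Slc25a22 had 2828, 3117, 3681 and 2314 in libraries labelled Prx1-cre and 4414, 4206, 5545 and 3676 in Bcl6-flox. The highest library labelled Prx1-cre lay just above the lowest Bcl6-flox library, and Slc25a22 fell with a fold change of -0.58 ± 0.16 (adjusted p = 0.0453). It passed in 3 of 8 fits that left out 1 library each and was lost with the muscle score in the fit, at a fold change of -0.50 (adjusted p = 0.115). Slc25a12, an aspartate-glutamate carrier of the malate-aspartate shuttle found in muscle, had 306, 268, 312 and 344 in libraries labelled Prx1-cre and 366, 372, 1799 and 415 in Bcl6-flox. Bcl6-flox replicate 3, the library with a muscle score of 12.9, held the value far above the others, and the fold change of -0.88 ± 0.47 did not pass (adjusted p = 0.251). Without that library, Slc25a36, Slc25a23 and Slc25a44 joined the calls, 3 members rising and 7 falling. The share of all tested genes called without it is not given here, so these counts are no result about the family.

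**Figure D2:**
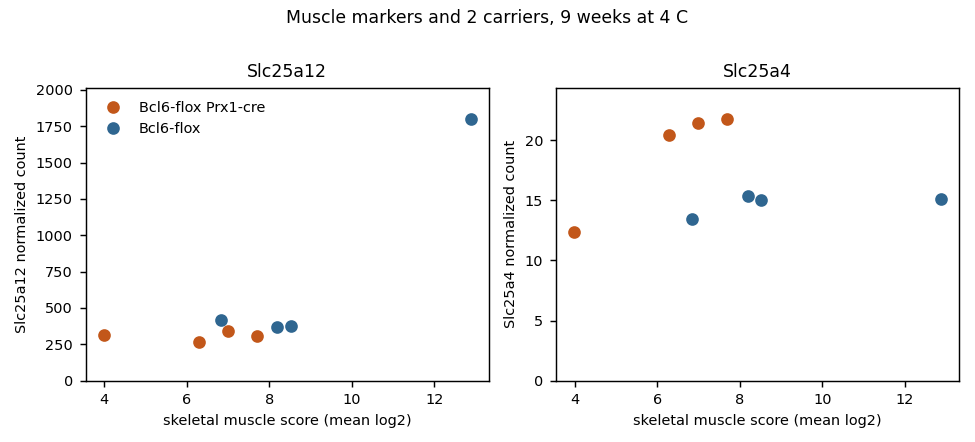
Normalized counts of Slc25a12 (left) and Slc25a4 (right) against the skeletal muscle score (mean log2 value of 13 markers) in the 8 libraries at 9 weeks and 4 C, coloured by label. The Bcl6-flox library at a score of 12.9 has 1799 of Slc25a12, above 268 to 415 in the others, while its Slc25a4 value of 15.1 is like those of the other Bcl6-flox libraries.

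Slc25a48, which has been linked to mitochondrial choline uptake, rose, and Slc25a34, whose substrate is not settled, was among the members that fell. Slc25a34 was low throughout, at 1.66, 3.04, 7.47 and 0 in libraries labelled Bcl6-flox Prx1-cre against 23.1, 15.0, 29.7 and 18.5 in Bcl6-flox. No library labelled Prx1-cre reached the test minimum of 10 and all 4 Bcl6-flox libraries did, so it could enter the test only as a lower member, and its call is given as a description. The fold change of -2.83 ± 0.61 (adjusted p = 0.0179) was -1.77 with a pseudocount of 5 and -3.19 with 0.5, and the call was lost without Prx1-cre replicate 1 or Bcl6-flox replicate 1. Slc25a48 stood at 338, 329, 121 and 144 in libraries labelled Prx1-cre, against 58.1, 57.9, 45.9 and 45.4 in Bcl6-flox. All libraries labelled Prx1-cre were higher, replicates 1 and 2 most, with a fold change of 2.01 ± 0.35 (adjusted p = 0.00764). Wild-type adults showed values of Slc25a34 of 13.8, 11.3, 7.28 and 1.94 at 4 C, and it was listed at 0 in all 4 libraries at 22 C, below the test minimum. Slc25a48 there had 21.9, 11.8, 10.6 and 6.73 at 4 C and 23.3, 25.6, 43.5 and 37.0 at 22 C, lower in every 4 C library, with a fold change of -1.34 ± 0.40 that did not pass (adjusted p = 0.0885).

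**Figure D3:**
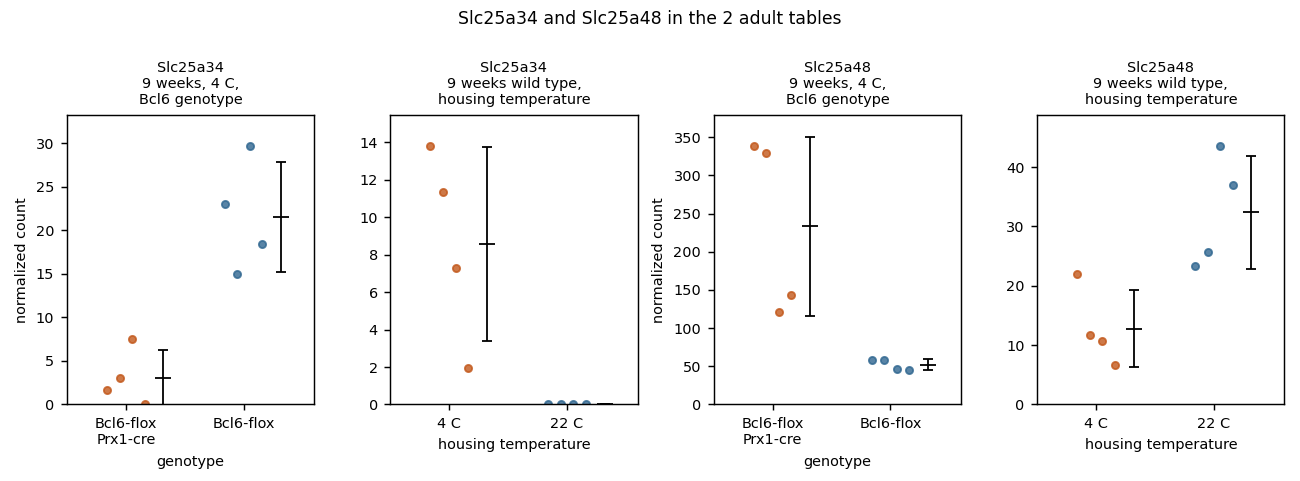
Normalized counts of Slc25a34 and Slc25a48 per library (points) with group mean and SD (bars) in the adult Bcl6 table at 4 C and the adult wild-type table. Slc25a34 is at most 7.47 in libraries labelled Bcl6-flox Prx1-cre and at least 15.0 in Bcl6-flox, and Slc25a48 is at least 121 in libraries labelled Bcl6-flox Prx1-cre and at most 58.1 in Bcl6-flox.

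Of the 6 falling members of this comparison, 5 are shown with the sequence before their transcription start. Slc25a34 is among them, although it could enter the test only as a lower member, and Slc25a22, which has 3 windows, is left out. The windows come from the RefSeq promoter table of GRCm38.p6, 5′ to 3′ on the strand of the gene, and end at the base before the listed start, or before the gene's annotated span where that reaches further. Capitals mark the nuclear receptor element AGGTCA, read on either strand.
Slc25a20, chr9:108661886-108662135 on the plus strand: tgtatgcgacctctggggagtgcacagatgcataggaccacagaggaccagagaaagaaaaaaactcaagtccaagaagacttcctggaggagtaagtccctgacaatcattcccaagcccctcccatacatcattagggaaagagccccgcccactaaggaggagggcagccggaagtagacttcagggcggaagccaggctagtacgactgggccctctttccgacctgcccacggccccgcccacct
Slc25a42, chr8:70212282-70212531 on the minus strand: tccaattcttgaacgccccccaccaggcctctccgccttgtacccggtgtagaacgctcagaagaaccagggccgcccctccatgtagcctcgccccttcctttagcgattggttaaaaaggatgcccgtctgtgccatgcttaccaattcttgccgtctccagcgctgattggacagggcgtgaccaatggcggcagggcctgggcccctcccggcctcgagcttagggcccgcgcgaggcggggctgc
Slc25a17, chr15:81360766-81361015 on the minus strand: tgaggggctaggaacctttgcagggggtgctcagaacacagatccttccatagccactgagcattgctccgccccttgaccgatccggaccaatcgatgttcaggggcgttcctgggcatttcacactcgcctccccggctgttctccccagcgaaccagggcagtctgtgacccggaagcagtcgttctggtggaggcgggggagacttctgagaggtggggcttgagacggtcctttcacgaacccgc
Slc25a33, chr4:149774268-149774517 on the minus strand: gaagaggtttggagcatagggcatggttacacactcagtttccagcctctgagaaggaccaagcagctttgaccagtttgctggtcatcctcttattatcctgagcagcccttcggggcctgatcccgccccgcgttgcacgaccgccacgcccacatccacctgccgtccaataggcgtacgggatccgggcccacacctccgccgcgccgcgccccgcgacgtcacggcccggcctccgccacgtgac
Slc25a34, chr4:141623892-141624084 on the minus strand: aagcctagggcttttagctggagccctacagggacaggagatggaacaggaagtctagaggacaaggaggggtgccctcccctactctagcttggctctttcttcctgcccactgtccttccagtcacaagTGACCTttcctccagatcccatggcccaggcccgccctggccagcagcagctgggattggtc

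Of the 5 windows, Slc25a34 holds AGGTCA, on the opposite strand and 119 bases before the listed start. The 3 windows of Slc25a22, not shown, do not hold AGGTCA. In windows of 250 bases before the start, AGGTCA was present in 4 of 45 windows of 35 members (8.89%), against 14% of 32851 windows of all genes. The Stat and Bcl6 core TTCNNNGAA stood in 2 member windows (4.44%), those of Slc25a36 and Slc25a54, against 7.02% of all. TCAAGGTCA, the estrogen-related receptor element, which contains AGGTCA, was in no member window, and 0.387% of all windows held it; both strands were searched. The printed windows have 56.8 to 64.4% GC, against a median of 57.6% over all member windows and 52.4% over all windows. Slc25a33 has 23 CpG sites and Slc25a42 has 18, while Slc25a34 has 1 in the 193 bases shown. The median is 11 over the member windows and 6 over all windows.

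Partner enzymes moved too. Of 15 tested in the libraries labelled Prx1-cre, 5 fell: Cpt1b by 1.48 ± 0.30 (SE), Crat by 1.03 ± 0.18, Cs by 0.60 ± 0.14, Dbt by 0.59 ± 0.09 and Cpt2 by 0.54 ± 0.13; Got2 rose by 0.92 ± 0.17. Uqcrc2 was the 1 of 11 respiratory chain genes that fell, by 0.49 ± 0.12, and Timm9 the 1 of 10 carrier import genes, by 0.49 ± 0.12. Mtch2, an outer-membrane protein of the same fold, fell by 0.41 ± 0.11, and its paralog Mtch1 rose by 0.29 ± 0.08. Muscle markers summed to 265 to 5661 in libraries labelled Prx1-cre and 2890 to 645779 in Bcl6-flox. The 6 enzymes kept their direction with the muscle score in the fit and 5 passed, all but Cpt2. Timm9 and Mtch1 passed, and Uqcrc2 and Mtch2 did not. In that fit 11.4% of all tested genes rose and 10.4% fell.

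The difference between the genotype effects at 9 weeks and 4 C and at P25 and 22 C was tested directly, with age and temperature changing together. None of 33 members differed, where 0.304% of 12487 genes did; 3 members had an unadjusted p below 0.05, as did 9.19% of all tested genes. Slc25a17 had a fold change of -0.69 ± 0.12 at 9 weeks and -0.12 ± 0.11 at P25, a difference of -0.57 ± 0.16 (SE, adjusted p = 0.172). Slc25a20 differed by -0.45 ± 0.24 and Slc25a42 by -0.29 ± 0.24, and neither passed. With the muscle score in both fits, 2 members differed, Slc25a17 among them, where 3.95% of all tested genes did. Of 33 members, 14 had negative fold changes at both ages, 9 positive at both, 5 positive at P25 alone and 5 positive at 9 weeks alone; over all 12487 genes tested in both, the shares were 35.4%, 34.5%, 16.4% and 13.7% in that order.

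In adult wild-type mice, the acylcarnitine carrier Slc25a20, the peroxisomal coenzyme A carrier Slc25a17 and the ADP/ATP carrier Slc25a5 rose at 4 C relative to 22 C, and no member fell, where 2.44% of all tested genes did. These 3 are 9.09% of 33 tested members, where 2.03% of 12118 tested genes rose; 9 members rose and 3 fell at an unadjusted p below 0.05, where 12.4% of all tested genes rose so and 11.4% fell. The median log2 fold change was 0.33 over the members and 0.02 over all tested genes, with 22 members positive and 11 negative, where 52.7% of all tested genes were positive. In all, 6 members had all 4 C libraries above all 22 C libraries, where 9.16% of all tested genes did, and 2 had them all below, where 8.15% did. Thermogenic markers, of which 2 of 5 tested rose, summed to 12259 to 55441 at 4 C and 1012 to 3605 at 22 C. Ucp1 alone stood at 9407 to 40150 and 111 to 423 in the same order.

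Slc25a20 had 2730, 5005, 2161 and 1968 at 4 C, against 1137, 1393, 664 and 776 at 22 C. The groups did not overlap, replicate 2 at 4 C being highest, and the fold change was 1.54 ± 0.33 (adjusted p = 0.0443). Slc25a17 stood at 1304, 2071, 922 and 970.2 at 4 C, against 464, 508, 359 and 419 at 22 C. Again every 4 C library was higher, with a fold change of 1.52 ± 0.25 (adjusted p = 0.0242). Slc25a5 had 6381, 8607, 4566 and 4472 at 4 C and 2920, 3223, 2657 and 3267 at 22 C, also without overlap, and a fold change of 0.94 ± 0.22 (adjusted p = 0.0480).

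These 3 calls were close to the threshold and moved with the libraries used. Slc25a20 and Slc25a5 were lost in all 8 fits that left out 1 library each, and Slc25a17 passed in 4 of 8. The 4 libraries with Xist above 100 and the 4 without were 2 per temperature; within the first, the difference at 4 C was 1.52 for Slc25a20, 1.28 for Slc25a17 and 0.62 for Slc25a5, and within the second 1.55, 1.76 and 1.27, a split chosen after seeing the data. With the Xist indicator in the fit 11 members rose and 2 fell, where 10.1% of all tested genes rose and 8.29% fell. With the muscle score 8 rose and 3 fell, where 8.34% of all tested genes rose and 7.23% fell. Slc25a42, Slc25a29, Slc25a15, Slc25a36 and Slc25a46 were among those that rose in both, and Slc25a1 and Slc25a25 fell in both. Muscle markers summed to 69.5 to 38243 at 4 C and 107 to 54919 at 22 C, with high and low libraries in each group.

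Several other carriers missed the threshold without a covariate. Slc25a29, a carrier of basic amino acids, was higher in all 4 C libraries at 106, 84.3, 81.7 and 132 against 63.0, 53.0, 49.6 and 58.7 at 22 C (fold change 0.81 ± 0.19, adjusted p = 0.0518). Slc25a42 had 1010, 1554, 727 and 610.0 at 4 C and 567, 590.2, 437 and 402 at 22 C, higher in each 4 C library, with an adjusted p of 0.101. Slc25a25 was lower in every 4 C library, 383, 386, 352 and 395 against 523, 439, 634 and 653 at 22 C (fold change -0.55 ± 0.14, adjusted p = 0.0576). Slc25a3 had a fold change of 0.28 ± 0.23, Slc25a10 of -0.22 ± 0.23 and Slc25a44 of 0.33 ± 0.19, with overlapping groups, and Slc25a4 stayed below the test minimum at 0 to 9.38 at 4 C and 0 to 2.17 at 22 C.

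Around the carriers, Cpt1b rose by 2.79 ± 0.46 (SE) at 4 C, Dbt by 1.34 ± 0.24 and Mdh1, the cytosolic malate dehydrogenase, by 1.17 ± 0.27, 3 of 15 tested partner enzymes. No gene passed in limma among 11 tested respiratory chain genes, whose median was 0.60, or among 10 carrier import genes, whose median was 0.51. Set beside the Bcl6 comparison at 4 C, which shares no library with it, 15 of 33 members were higher at 4 C and lower in libraries labelled Prx1-cre, 7 were lower at 4 C and higher there, 7 were positive in both and 4 negative in both. Over all 12075 genes tested in both, the shares were 34.6%, 29.0%, 18.2% and 18.2% in that order.

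**Figure D4:**
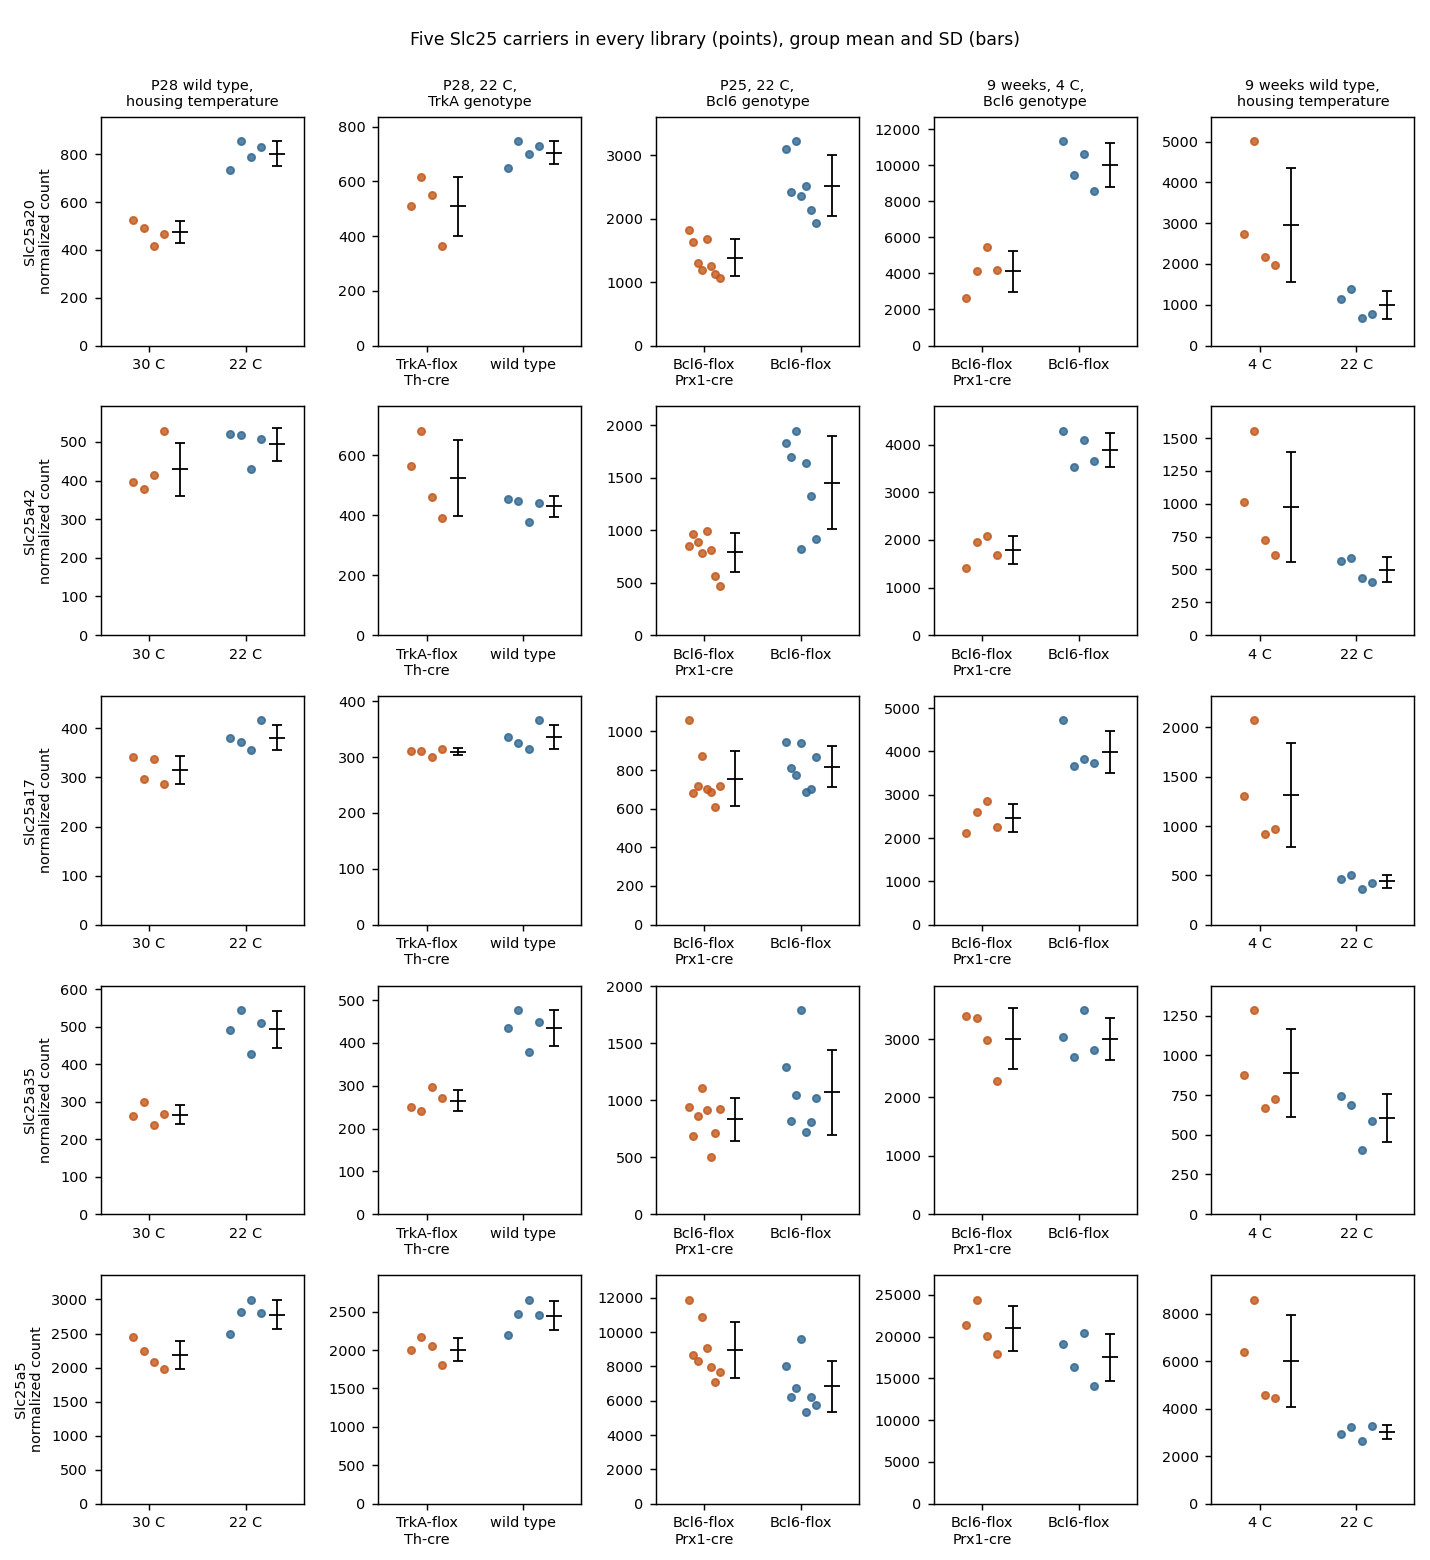
Normalized counts of Slc25a20, Slc25a42, Slc25a17, Slc25a35 and Slc25a5 (rows) per library (points) with group mean and SD (bars) in the 5 comparisons (columns); axes start at 0 and differ between panels because tables were scaled separately. The groups of Slc25a20 are apart in all 5 panels, whereas those of Slc25a35 are apart in the 2 P28 panels, which share their 22 C wild-type libraries, and overlap in the other 3.

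For the citrate carrier Slc25a1 and the peroxisomal carrier Slc25a17, the temperature effect differed between the 2 ages. Expressed as cooler minus warmer, the temperature effect was 4 C minus 22 C at 9 weeks and 22 C minus 30 C at P28, so age and the temperatures change together. The difference between the effects passed for 2 of 32 members, where 3.33% of 11618 genes passed; 9 members had an unadjusted p below 0.05, as did 17.8% of all tested genes. Slc25a1 had 6097, 9502, 4929 and 4771 at 4 C and 13868, 11755, 8669 and 10338 at 22 C in adults, with 1 library at 4 C above the lowest at 22 C. Its cooler-minus-warmer effect was -0.86 at 9 weeks and 0.81 at P28, where the values are given above, a difference of -1.66 ± 0.38 (SE, adjusted p = 0.0243), although neither effect passed within its own table. Slc25a17 had 1.52 at 9 weeks and 0.27 at P28, a difference of 1.25 ± 0.26 (adjusted p = 0.0318). Slc25a20 had 1.54 and 0.76, a difference of 0.78 ± 0.34 that did not pass (adjusted p = 0.277). With the muscle score in both fits, where 5.15% of all tested genes passed, the difference was -1.65 ± 0.45 for Slc25a1 (adjusted p = 0.0608) and 1.39 ± 0.22 for Slc25a17 (adjusted p = 0.00449). In that fit Slc25a20, at 0.77 ± 0.21 (adjusted p = 0.0487), and Slc25a36, at 0.78 ± 0.20 (adjusted p = 0.0363), passed too.

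**Figure D5:**
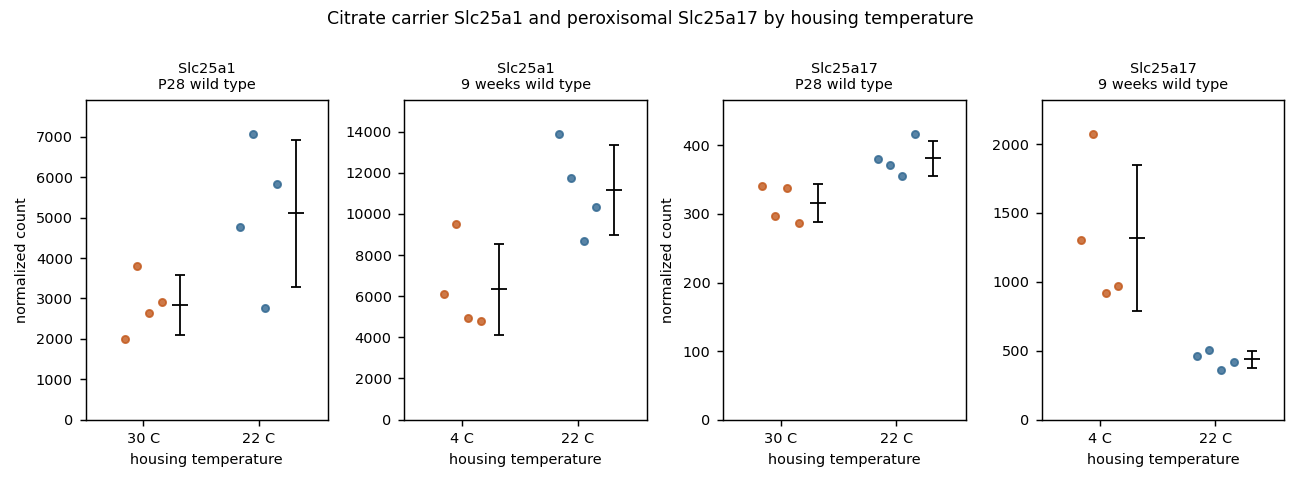
Normalized counts of Slc25a1 and Slc25a17 per library (points) with group mean and SD (bars) at 30 C and 22 C at P28 and at 4 C and 22 C at 9 weeks. Slc25a1 is mostly higher on the cooler side at P28 and mostly lower on it at 9 weeks, while Slc25a17 is higher on the cooler side at both ages.

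The uncoupling-protein-like carriers Slc25a14, Slc25a27 and Slc25a30 passed in none of 5 comparisons in limma, with fold changes between -0.59 and 0.85. Slc25a37 and Slc25a28, the mitoferrins that bring iron into mitochondria, had fold changes between -0.27 and 0.12. Slc25a16 had a positive fold change of 0.39 ± 0.21 at 4 C in adult wild-type mice and passed there in the fit with the Xist indicator but in no other fit of that comparison.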

How the data were processed

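RNA of inguinal white adipose tissue from 43 samples of 9 groups was sequenced from stranded mRNA libraries, per the labels' protocols. The deposited signal values are estimated counts per gene that the authors normalized, in 5 tables; the submitters' processing notes name kallisto, DESeq2 and mm10, with versions, settings and use of strand not given in the sources used here. They are not whole numbers: taking a common step per library, 32.6 to 75.4% of its low values fell on whole steps within a tolerance of 0.02, so whole reads were not recovered and no count model was used. That step gave rough depths of 3490000 to 30400000 reads per library. The 4 wild-type libraries shared by the P28 tables differ between them by a median ratio of 1.13 to 1.14 that varies by gene.

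Symbols and coordinates came from RefSeq (GRCm38.p6, mm10); 21 identifiers had no match. Genes reaching 10 in as many libraries as the smaller group were tested with limma 3.58.1 in R 4.3.3, with a mean-variance trend, on log2(value + 1), and p-values were adjusted (Benjamini-Hochberg) over all tested genes of a table with 0.05 as the threshold. On this scale the change of a low value is understated. Differences of effects between tables used both standard errors and a t reference with Welch-Satterthwaite degrees of freedom. The columns at P25 carry codes such as M4 that match no sample number. Values per library are given for members past the threshold and for a panel of 9 members (Slc25a1, Slc25a3, Slc25a4, Slc25a5, Slc25a10, Slc25a20, Slc25a25, Slc25a42 and Slc25a44); a few others were named after their values were seen. Members and lists were chosen with earlier results of these data known. Alternatives changed the pseudocount, the filter, the scaling, covariates, the replicate block and the libraries. The test was checked on simulated data. Where a list has fewer genes in the tables than named, the rest were not analysed here. The separate values of 1 member, which counts over the family include, and of 1 targeted gene are not reported here.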

Additional observations from a re-analysis of the deposited data

Results flagged for a closer look

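In 5 of 91 groups of 4 to 10 libraries looked at, 1 library stood far from the others by Dixon's criterion, and chance gives about 1 in 20. Slc25a42 was 429.5 in wild-type replicate 3 at P28 and 22 C, below the other 3. The Bcl6-flox library M4 at P25 had 36421 of the citrate carrier Slc25a1 and 2312 of the branched-chain amino acid carrier Slc25a44, both the highest of its group. At 9 weeks and 4 C, Slc25a17 was 4715 in Bcl6-flox replicate 1 and Slc25a4 was 12.4 in replicate 3 labelled Bcl6-flox Prx1-cre.

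The cooler-minus-warmer effect differed between ages, as tested in the report, by -1.66 for Slc25a1 and by 1.25 for Slc25a17 (9 weeks minus P28, log2).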

How the results depend on the processing

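Counts of called members changed with the processing as follows. With the muscle score as covariate, 0 members fell in TrkA-flox Th-cre libraries and 1 at P25, where 0.0588% and 1.46% of all tested genes fell. With it, 2 members rose in the adult Bcl6 comparison, where 11.4% of all tested genes rose. In adult wild-type mice 8 rose and 3 fell, where 8.34% of all tested genes rose and 7.23% fell. For 2 members the Bcl6 effects differed between ages, where 3.95% of all tested genes differed. Quantile normalization gave 1 rise at P25, 2 rises in the adult Bcl6 comparison and 2 falls in adult wild-type mice, and the stricter filter of 50 gave 1 fall there. With the Xist indicator, 1 member rose at P25, where 1.72% of all tested genes rose. In adult wild-type mice it gave 11 rises and 2 falls, where 10.1% of all tested genes rose and 8.29% fell. That indicator could not be fitted in the adult Bcl6 comparison, where all 8 libraries were above 100. A normal reference for the difference tests gave 1 call for Bcl6 and 4 for temperature. Leaving out 1 library at a time, falls at P28 and 30 C numbered 2 to 6, with 6 without wild-type replicate 3 at 22 C; falls in TrkA-flox Th-cre libraries 1 to 2; falls at P25 1 to 3; rises and falls in the adult Bcl6 comparison 1 to 3 and 4 to 7; and rises in adult wild-type mice 0 to 1. Rises at P28 (both comparisons) and P25, and falls in adult wild-type mice, stayed at 0 to 0. For the quantile, stricter-filter, normal-reference and leave-one-out fits, the shares over all tested genes are not given here. Their counts are therefore no result about the family.

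The pairing of same-numbered libraries was checked by the correlation of their deviations from the group means. No comparison had every pair above 0.1, and the main fits do not pair libraries by number. Since 1 discordant pair is enough to fail that rule, it does not exclude that some libraries are paired. Pairs above 0.1 were 0 of 4 at 30 C, 3 of 4 for TrkA, 1 of 4 in the adult Bcl6 comparison and 3 of 4 in adult wild-type mice (-0.26 to 0.77), where 2 of 4 libraries at 4 C correlated best with their own number and replicates 3 and 4 are the ones with Xist above 100 at both temperatures. The replicate block gave 9 rises and 2 falls in adult wild-type mice, where 7.76% of all tested genes rose and 5.99% fell. It removed the call on Slc25a46 at P28 and 30 C, where 1.46% of all tested genes fell in that fit. No other count changed by over 1.5 times. At P25, 7 codes recur in both groups and 5 of 7 pairs were above 0.1. Xist was at most 26.4 in libraries with M codes and at least 4324 in those with F codes. A replicate block by these codes therefore also takes up that split. Added after seeing the data, the block gave 1 rise (Slc25a5) and 5 falls (Slc25a20, Slc25a22, Slc25a33, Slc25a35 and Slc25a42). In that fit 2.39% of all tested genes rose and 3.35% fell.

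Single-member results were counted for the panel of 9 members and for members called in the comparison or difference test concerned. Other members were left out of these counts. Slc25a22 in TrkA-flox Th-cre libraries, for example, had a fold change of -0.33 without and 0.48 with the muscle score. Of the counted results, 755 kept direction and side of the threshold, 53 lost and 24 gained a call, and 14 changed sign. All 14 were uncalled and near 0 apart from Slc25a1 in TrkA-flox Th-cre libraries (0.42, muscle). At P28 these were Slc25a25 (-0.012, muscle) and Slc25a44 (0.027, muscle; -0.090 to 0.057 leaving out 1 library). At P25 it was Slc25a3 (0.0089, quantile; -0.114 to 0.029 leaving out 1 library). In the adult Bcl6 comparison they were Slc25a10 (0.052, quantile; -0.104 to 0.17 leaving out 1 library) and Slc25a3 (0.0057, muscle; -0.103 to 0.011 leaving out 1 library). The cause of these changes was not tested. Low members, such as Slc25a34, rest on few reads, and depth limits what can be said of the 8 to 13 members per table below the test minimum.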
